A study of Homo sapiens with 36 samples.

Results

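The effect of MEIS1 gain was set beside the effect of MEIS1 loss, gene by gene, in cultured human neural stem cells (hNSC). The comparison used 24 of the 36 RNA-seq libraries of the study, 6 in each of 4 conditions. A gene was included when its counts summed over these 24 libraries reached at least 10, which kept 19131 of 28516 gene symbols. Each gene was then placed by its change in both arms as moved in opposite directions, moved in the same direction, moved in 1 arm only, or not called.

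All cells were commercial Gibco hNSC, transduced with lentivirus and harvested 48 h later. In MEIS1-OE (CRISPRa_MEIS1 in the labels) a Cas9 that cannot cut was guided to the MEIS1 promoter together with activation domains, so that the cell's own gene was transcribed more strongly. In MEIS1-KO (CRISPR-KO_MEIS1) an active Cas9 was directed to MEIS1 coding exons by a mixture of guides. The controls ctrl-OE (CRISPRa_ctrl) and ctrl-KO (CRISPR-KO_ctrl) carried the same machinery as their arm with non-targeting guides, so that each arm had its own control and the arms shared no library. A non-targeting guide directs no cut, so that in MEIS1-KO the cutting of DNA and the loss of MEIS1 cannot be told apart. Effects of loss below are meant in this sense. Bulk cultures were harvested, not clones, and the share of edited alleles was not measured here. The activation arm rested on 1 guide sequence. The labels do not say that replicates came from separate cultures, so that p-values measure the spread between these libraries, which may be technical.

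MEIS1 is a homeodomain transcription factor of the TALE class. TALE factors bind DNA together with PBX and HOX proteins, and MEIS proteins are known to keep progenitor cells in a proliferating state and to act in neural and limb development. A factor can be required for the expression of a gene at its normal level, or be able to raise it only when present in excess, and the effects of gain and loss need therefore not mirror each other.

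The guides used for the knockout are shown because their position sets which part of MEIS1 was cut. Both matched chromosome 2 of GRCh37 once, on the strand of the gene, which spans chr2:66660584-66801001. MEIS1-g2 lay at chr2:66691310-66691332 in coding exon 7 of the canonical transcript, and MEIS1-g3 at chr2:66739346-66739368 in coding exon 8. The capitals mark the PAM, the 3 genomic bases next to the guide that Cas9 requires.
MEIS1-g2: ggtggccacacgtcacacagTGG
MEIS1-g3: aaaaagcgtcacaaaaagcgTGG

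The depth was 17227052 to 22940493 counted reads per library, and the group medians lay between 19415519 and 21025529.5. Among markers of neural stem cells, the group means were 938 to 1734 CPM (counts scaled to equal library size) for NES, 1991 to 2909 CPM for VIM and 112 to 300.4 CPM for SOX2. PAX6 and HES5, of the same list, were lower, at group means of 19.1 to 37.2 and 0.0635 to 0.741 CPM. The leukocyte marker PTPRC was at group means of 0 to 0.0541 CPM and the astrocyte marker GFAP at 0.0478 to 0.33 CPM. SLC1A3, another astrocyte marker, stood at 6.4 to 25.8 CPM and CSPG4, of the oligodendrocyte lineage, at 14.7 to 28.8 CPM. The summed level of 6 astrocyte markers was 7.58 to 14.8 CPM in the libraries of the activation arm and 20.5 to 32.6 CPM in those of the knockout arm, and that of 7 oligodendrocyte lineage markers 47.1 to 70.6 CPM over both arms. Markers of microglia and endothelium summed to 16.6 to 30.8 CPM. The 8 neuron markers tested summed to 576 to 760 CPM in the activation arm and 1111 to 1205 CPM in the knockout arm. Of these, MAP2 stood at group means of 241 to 757 CPM. The pluripotency gene LIN28A stood at 299 to 492 CPM, whereas NANOG and POU5F1 did not exceed a group mean of 0.155 CPM. A few libraries stood apart from the rest of their group. MEIS1-OE replicate 3 was the extreme library in 10 gene and group combinations of the 548 examined, more than any other library. Calls in MEIS1-OE went from 1807 to 2511 when this library was left out, and calls in MEIS1-KO went from 293 to 140 without MEIS1-KO replicate 3, to 185 without ctrl-KO replicate 6 and to 403 without MEIS1-KO replicate 2.

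MEIS1 itself was measured first. Its level was 15.7 to 18.8 CPM in ctrl-OE (median 18.0) and 287 to 323 CPM in MEIS1-OE (median 315). In ctrl-KO it was 23.7 to 28 CPM (median 25.6), and in MEIS1-KO 6.43 to 11.2 CPM (median 8.88). The groups did not overlap in either arm. Gain raised MEIS1 by 4.12 ± 0.0734 (log2 fold change ± SE, n = 6 per group; edgeR quasi-likelihood test, adjusted p = 2.32e-33), and loss changed it by -1.52 ± 0.0772 (adjusted p = 4.65e-17 by the same test). The loss was therefore 0.37 times the size of the gain on the log2 scale, and transcripts of edited alleles remain counted. An antisense gene in the locus, MEIS1-AS3, also rose in MEIS1-OE (log2 fold change 4.69, edgeR adjusted p = 7.66e-12), and without the strand setting of the counting step, reads of both strands cannot be told apart here. The paralog MEIS2 stayed within overlapping ranges in both arms, with medians of 22.8 and 21.6 CPM in ctrl-OE and MEIS1-OE, and 26.4 and 23.1 CPM in ctrl-KO and MEIS1-KO. Its log2 fold changes were -0.02 ± 0.0514 (adjusted p = 0.877) and -0.16 ± 0.0518 (adjusted p = 0.141, edgeR).

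Gain moved far more genes than loss. In MEIS1-OE 1807 genes (9.45% of those tested) had an adjusted p under 0.05, of which 1095 (5.72%) were raised and 712 (3.72%) lowered. In MEIS1-KO 293 genes (1.53%) were called, 207 (1.08%) raised and 86 (0.45%) lowered. With an additional fold criterion of 0.58 on the log2 scale, 559 genes (2.92%) remained for gain and 60 (0.314%) for loss. All 6 MEIS1-OE libraries lay above or all below the 6 ctrl-OE libraries for 861 genes (4.5%), and the same held for 273 genes (1.43%) between MEIS1-KO and ctrl-KO. Both arms called 79 genes, which were 27% of the genes called for loss and 4.37% of those called for gain.

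Of these 79 genes, 25 moved in opposite directions and 54 in the same direction. The opposite set held 17 genes raised by gain and lowered by loss, MEIS1 among them, and 8 lowered by gain and raised by loss. The same-direction set held 43 genes raised in both arms and 11 lowered in both. The remaining called genes fell in 1 arm: 1035 were raised and 693 lowered in MEIS1-OE only, and 156 were raised and 58 lowered in MEIS1-KO only. A direct contrast of both effects (gain minus loss) called 689 genes (3.6%), and their sum called 1542 genes (8.06%). The sum is large when both effects share a sign, but either contrast is also large when only 1 arm moves. Genes called with gain only made up 518 of the 689 and 938 of the 1542. The 25 opposite genes were all called by the difference, and the 54 same-direction genes all by the sum. Called effects of opposite sign add up in the difference and those of the same sign in the sum. These calls therefore largely follow from the choice of the genes. With the fold criterion in both arms, 2 opposite genes besides MEIS1 and 7 same-direction genes were left. Leaving out MEIS1-KO replicate 3 gave 10 opposite genes besides MEIS1 and 30 same-direction genes in place of 24 and 54, and leaving out MEIS1-OE replicate 3 gave 31 and 99. The opposite genes numbered 11, 13, 14 and 15 without ctrl-KO replicate 6, MEIS1-KO replicate 4, ctrl-KO replicate 3 and MEIS1-KO replicate 5, and the same-direction genes 34 without ctrl-KO replicate 3. The calls of 6 of the 24 opposite and 20 of the 54 same-direction genes held with each of the 24 libraries left out in turn.

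**Figure D1:**
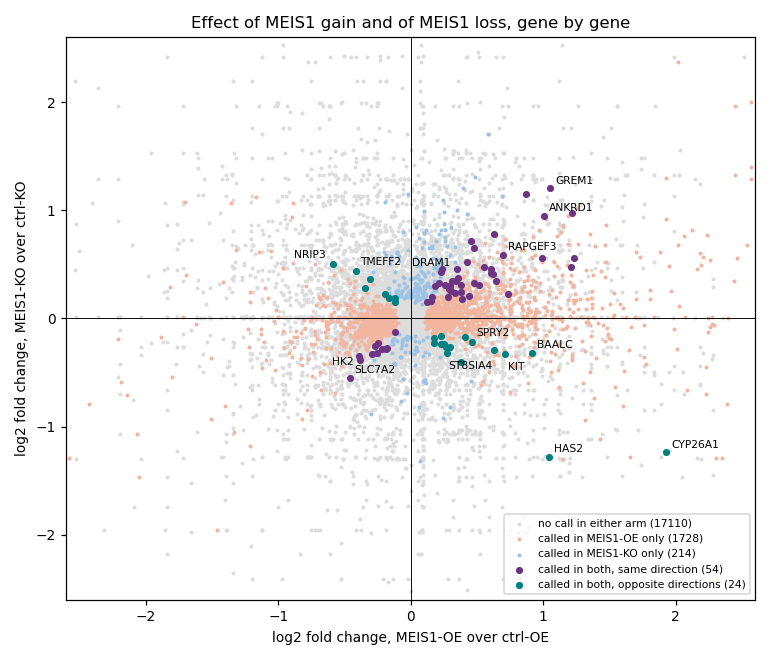
Log2 fold change of MEIS1-OE over ctrl-OE (horizontal axis) and of MEIS1-KO over ctrl-KO (vertical axis); each point is 1 gene, coloured by the arm or arms in which it was called at an adjusted p under 0.05. Genes called in both arms lie close to the centre apart from a few such as CYP26A1 and GREM1, and 150 genes with a change beyond 2.6 in either arm, as well as MEIS1, lie outside the axes or are left out.

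The genes raised by gain and lowered by loss followed MEIS1 in both arms. Their median log2 fold changes, MEIS1 left out, were 0.34 and -0.26, beside -0.00 and 0.00 over all tested genes. BAALC, a membrane-associated protein known from acute myeloid leukaemia, had the smallest p. It lay at 50.4 to 57 CPM in ctrl-OE (median 51.1) and 95 to 102 CPM in MEIS1-OE (median 98.9), and at 117 to 143 CPM in ctrl-KO (median 133) and 89.5 to 121 CPM in MEIS1-KO (median 108). The activation libraries were all above their controls, while the knockout libraries overlapped theirs at the edge. BAALC changed by 0.92 ± 0.0562 with gain (adjusted p = 7.71e-16) and by -0.32 ± 0.0551 with loss (adjusted p = 9.47e-04, edgeR), and the gain was the larger effect (edgeR test of unequal size, adjusted p = 1.38e-06). In the MEIS2 arms, which used the same control libraries, BAALC changed by 0.87 and -0.4.

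ST8SIA4, a polysialyltransferase that adds polysialic acid to NCAM, was at 27.2 to 32.2 CPM in ctrl-OE (median 30.5) and 43.9 to 50.4 CPM in MEIS1-OE (median 46.4). In ctrl-KO it was at 80.6 to 88.6 CPM (median 82.4) and in MEIS1-KO at 55.9 to 77.1 CPM (median 71.2). Neither pair of groups overlapped, and the changes were 0.63 ± 0.0605 (adjusted p = 2.53e-10) and -0.29 ± 0.0585 (adjusted p = 0.00335, edgeR). SPRY2, a feedback inhibitor of receptor tyrosine kinase signalling to ERK, was at 116 to 140 CPM in ctrl-OE (median 120) and 157 to 183 CPM in MEIS1-OE (median 164). It was at 201 to 210 CPM in ctrl-KO (median 204) and at 170 to 188 CPM in MEIS1-KO (median 174). Here too the groups were separate, with changes of 0.46 ± 0.045 (adjusted p = 4.08e-10) and -0.21 ± 0.0448 (adjusted p = 0.00555, edgeR).

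CYP26A1, the enzyme that breaks down retinoic acid, had the largest change with gain of the opposite genes apart from MEIS1, at very low levels. It was at 0.0808 to 0.609 CPM in ctrl-OE (median 0.25) and 0.694 to 1.71 CPM in MEIS1-OE (median 0.982). The ranges were 0.942 to 2.02 CPM in ctrl-KO (median 1.31) and 0.419 to 0.808 CPM in MEIS1-KO (median 0.556). The groups did not overlap in either arm, and the changes were 1.93 ± 0.292 (adjusted p = 5.87e-06) and -1.24 ± 0.257 (adjusted p = 0.00529, edgeR). KIT, the receptor of stem cell factor, rose from a median of 4.98 CPM (4.5 to 5.17) to 8.19 CPM (7.24 to 8.96) with gain, a change of 0.71 ± 0.0854 (edgeR adjusted p = 5.39e-08). With loss it fell from 8.18 CPM (7.89 to 8.83) to 6.36 CPM (5.68 to 8.14), a change of -0.33 ± 0.0853 (edgeR adjusted p = 0.0331), and the knockout groups overlapped.

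The other opposite genes of this direction were FAM167A (0.28 and -0.32 for gain and loss), ZSWIM5 (0.27 and -0.26), VSIG10 (0.29 and -0.26), KBTBD11 (0.41 and -0.17) and PTX3 (0.25 and -0.24), a secreted pattern recognition protein. A further 6 genes fell outside the naming rule and are listed after their values were seen. HAS2, a hyaluronan synthase, changed by 1.05 and -1.28, and DKFZP686I15217, DCLK2, LRRC4, SLC1A4 and SSFA2 changed by 0.17 to 0.38 and by -0.16 to -0.4. Of the 16 genes besides MEIS1, 4 had a larger gain than loss by the test of unequal size (1.16% of all tested genes, 222 in number): BAALC, ST8SIA4, SPRY2 and KBTBD11. For 10 of the 16 the MEIS1-OE and ctrl-OE libraries did not overlap (4.5% of all tested genes). For 8 the MEIS1-KO and ctrl-KO libraries did not (1.43%). The choice of genes called in both arms favours such separation.

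The 8 genes lowered by gain and raised by loss had median changes of -0.25 and 0.25. TMEFF2, a transmembrane protein with follistatin-like and EGF-like domains, was at 5.21 to 7.15 CPM in ctrl-OE (median 6.13) and 4.12 to 5.14 CPM in MEIS1-OE (median 4.48). In ctrl-KO it was at 6.71 to 7.82 CPM (median 7.21) and in MEIS1-KO at 9.13 to 11.2 CPM (median 9.49). It was the only one of the 8 with separate groups in both arms, and changed by -0.41 ± 0.0856 (adjusted p = 7.36e-04) and 0.44 ± 0.0807 (adjusted p = 0.0015, edgeR). FRZB, a secreted WNT antagonist, went from a median of 11.6 CPM (10.8 to 12.3) to 8.79 CPM (8.25 to 11) with gain, and from 7.11 CPM (5.41 to 8.07) to 9 CPM (8.08 to 9.92) with loss. NRIP3 went from 12.8 CPM (11.1 to 15.7) to 8.65 CPM (6.95 to 9.72) with gain and from 2.66 CPM (1.82 to 3.46) to 3.93 CPM (3.15 to 4.55) with loss, so that its level differed more between the controls than between the conditions of either arm.

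Smaller changes were found for the antioxidant genes NQO1 (-0.16 and 0.19), which encodes a quinone reductase, and PRDX6 (-0.12 and 0.15), which encodes a peroxiredoxin. RETSAT, which saturates retinol, changed by -0.12 and 0.19, and the cytoskeletal gene NEBL by -0.34 and 0.28. Their libraries overlapped in both arms, except that those of RETSAT were separate in the knockout arm. None of the 8 genes passed the test of unequal size (edgeR, adjusted p = 1 for TMEFF2).

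**Figure D2:**
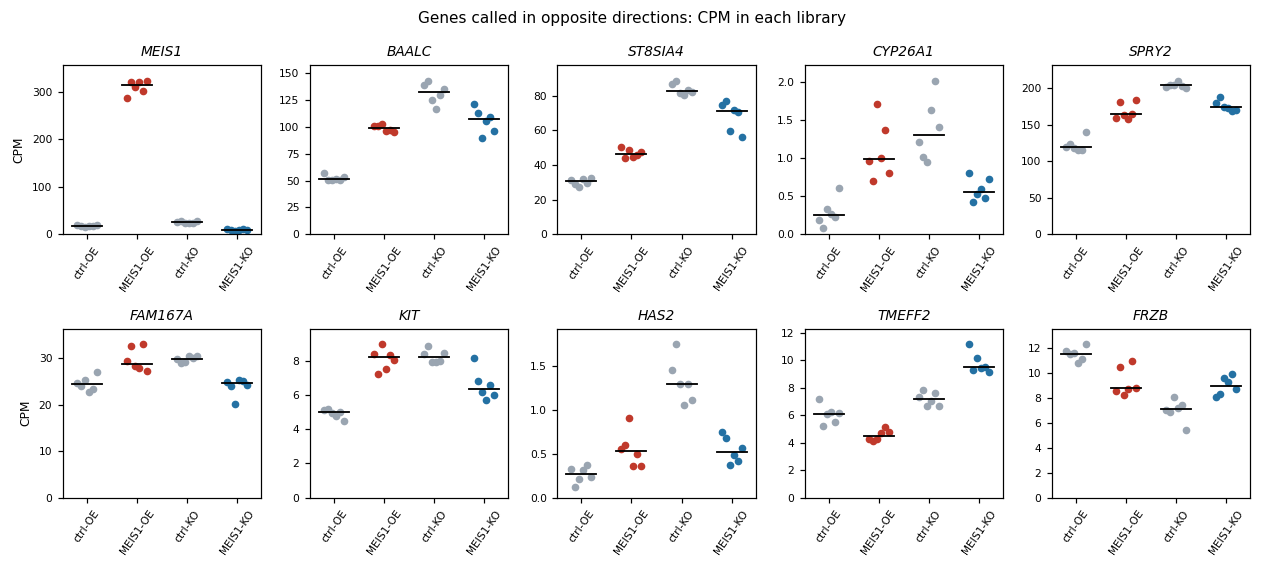
Level in CPM of 10 genes called in opposite directions in each of the 24 libraries; points are libraries, lines are group medians, and grey points are controls. MEIS1 to HAS2 rose in MEIS1-OE and fell in MEIS1-KO, TMEFF2 and FRZB changed the other way round, and the control levels differed between the arms, as for BAALC with medians of 51.1 and 133 CPM.

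The controls themselves differed widely. The level in ctrl-OE differed from that in ctrl-KO for 10115 of the tested genes and for 23 of the 24 opposite genes (edgeR, adjusted p under 0.05), so that levels were compared within an arm only. The machinery delivered and the arm cannot be told apart in this design.

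Genes raised in both arms made up the largest joint class. Their median changes were 0.43 with gain and 0.35 with loss. In bulk cultures, more cells of a kind and more RNA per cell cannot be told apart for these and all other changes. DRAM1, a lysosomal protein induced by p53 that acts in autophagy, had the smallest p. It was at 23.8 to 27.8 CPM in ctrl-OE (median 25.9) and 28.8 to 36.1 CPM in MEIS1-OE (median 33.6), and at 33.9 to 39.9 CPM in ctrl-KO (median 35.8) and 42.7 to 51.3 CPM in MEIS1-KO (median 46.4). The groups were separate in both arms, with changes of 0.36 ± 0.0539 (adjusted p = 5.63e-06) and 0.38 ± 0.0532 (adjusted p = 1.48e-04, edgeR).

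RAPGEF3 encodes EPAC1, an exchange factor for RAP that is switched on by cAMP. It rose from a median of 12.6 CPM (11.1 to 14.4) to 20.8 CPM (15.8 to 23.2) with gain and from 8.82 CPM (7.54 to 9.36) to 12.6 CPM (12 to 15) with loss. The changes were 0.7 ± 0.0906 (adjusted p = 2.92e-07) and 0.59 ± 0.0972 (adjusted p = 5.27e-04, edgeR). SLC48A1, which overlaps RAPGEF3 on the other strand, was also called in MEIS1-KO (log2 fold change 0.34, edgeR adjusted p = 0.00482), and reads of both cannot be told apart without the strand setting. The paper counts RAPGEF3 among the predicted off-target genes of its knockout guides that changed against ctrl-KO. It set an off-target effect aside because both MEIS1 and MEIS2 affected the gene. An off-target cut was not tested here.

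ANKRD1, a known target of YAP, rose from a median of 25.2 CPM (17.2 to 30.4) to 44.6 CPM (37.8 to 78.8) with gain and from 32.9 CPM (19.4 to 37) to 61.5 CPM (42.1 to 81.4) with loss. Its changes were 1.01 ± 0.177 (adjusted p = 7.54e-05) and 0.95 ± 0.176 (adjusted p = 0.00158, edgeR). GREM1, a secreted BMP antagonist, changed by 1.06 and 1.2, AJUBA, an adaptor protein of the Hippo pathway, by 0.33 and 0.23, and the membrane protein EMP1 by 0.99 and 0.56. These 3 genes had separate groups in both arms.

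PLK2, a stress-responsive polo-like kinase, rose from a median of 123 CPM (117 to 128) to 182 CPM (162 to 246) with gain and from 175 CPM (167 to 213) to 227 CPM (216 to 250) with loss. TNFRSF10B, a death receptor, was the most abundant gene named in this class and had the smallest changes, 0.15 ± 0.0288 (adjusted p = 2.95e-04) and 0.16 ± 0.0288 (adjusted p = 0.00101, edgeR), at 683 to 750 CPM in ctrl-OE, 755 to 823 CPM in MEIS1-OE, 692 to 725 CPM in ctrl-KO and 768 to 811 CPM in MEIS1-KO.

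MMP19, a matrix metalloproteinase, was the most unequal of the named genes. It was at 6.05 to 8.81 CPM in ctrl-OE (median 6.83) and 86.6 to 119 CPM in MEIS1-OE (median 106), a change of 3.86 ± 0.0944 (edgeR adjusted p = 8.64e-29). In ctrl-KO it was at 1.01 to 1.33 CPM (median 1.11) and in MEIS1-KO at 1.52 to 2.46 CPM (median 1.9), a change of 0.8 ± 0.166 (edgeR adjusted p = 0.00495). The difference between both effects was called (edgeR adjusted p = 2.84e-14). In all, 3 of the 43 genes raised in both arms had a larger gain than loss, MMP19, MCAM and REXO2, where MCAM and REXO2 are outside the naming rule and were picked with their values known.

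The 11 genes lowered in both arms had median changes of -0.26 and -0.28. HK2, the hexokinase of the first step of glycolysis, was at 30.5 to 42.2 CPM in ctrl-OE (median 36.4) and 24.9 to 30.1 CPM in MEIS1-OE (median 28.2), and at 58 to 64.5 CPM in ctrl-KO (median 61) and 42.7 to 52.4 CPM in MEIS1-KO (median 45.8). The groups were separate in both arms, and the changes were nearly equal at -0.38 ± 0.0612 (adjusted p = 1.57e-05) and -0.39 ± 0.0598 (adjusted p = 3.17e-04, edgeR). SLC7A2, a transporter of cationic amino acids, changed by -0.46 and -0.55, GSE1 by -0.25 and -0.23, ISOC1 by -0.22 and -0.28, and FMN2, a formin that nucleates actin, by -0.39 and -0.35. MCM3, a subunit of the replicative helicase, had the smallest changes, -0.12 and -0.13, and CDCA7L (-0.26 and -0.32) and WDR76 (-0.18 and -0.28) were in the class too. CCDC109B (-0.27 and -0.25), an inhibitory subunit of the mitochondrial calcium uniporter, and CLGN (-0.29 and -0.33), an endoplasmic reticulum chaperone, completed the named genes. The direct contrast of both arms called 0 of these 11 genes by edgeR and 0 by DESeq2, with 0 at an unadjusted p under 0.05. The choice of genes lowered in both arms favours a small difference, so that equal effects are not shown.

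**Figure D3:**
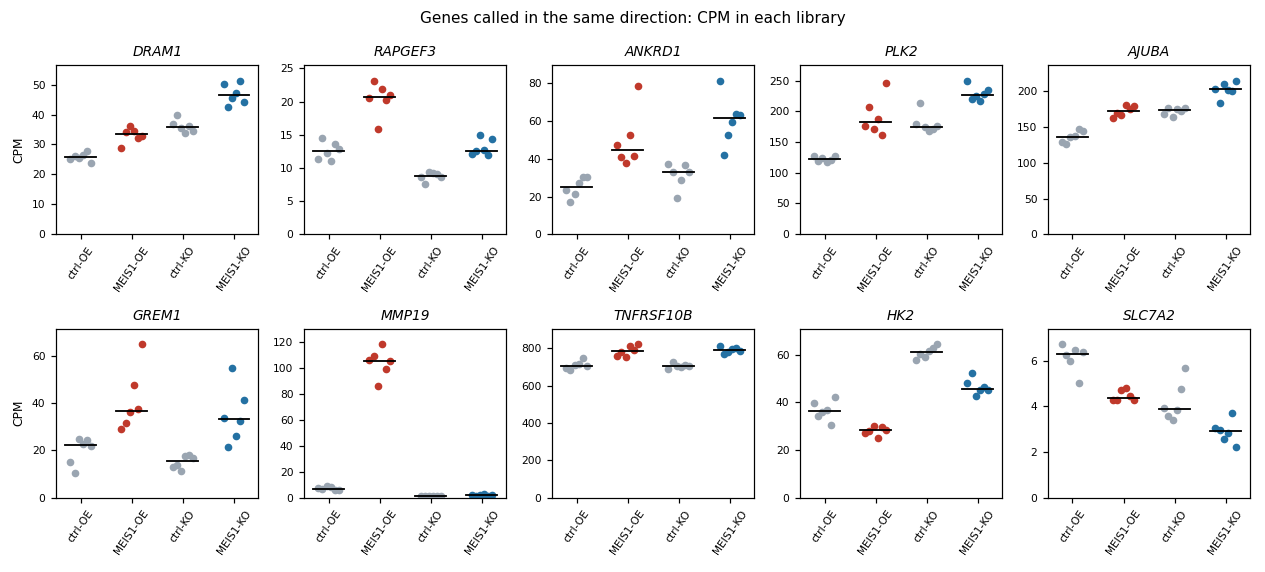
Level in CPM of 10 genes called in the same direction in each of the 24 libraries; points are libraries, lines are group medians, and grey points are controls. DRAM1 to TNFRSF10B were higher and HK2 and SLC7A2 lower in both manipulated conditions, and MMP19 rose to 86.6 to 119 CPM in MEIS1-OE.

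Genes moved by gain alone were by far the most numerous, and for 214 of these 1728 genes the gain was also larger than the loss by the test of unequal size. The kinesin heavy chain gene KIF5A rose from a median of 18.9 CPM (17.4 to 19.6) to 88.3 CPM (82.5 to 95.3), a change of 2.24 ± 0.0552 (edgeR adjusted p = 8.64e-29). With loss it went from 11.2 CPM (10.7 to 12.6) to 10.2 CPM (9.21 to 12), a change of -0.12 ± 0.0615 (edgeR adjusted p = 0.425) within overlapping ranges. THBS3, a thrombospondin, rose by 1.41 from a median of 57.8 to 153 CPM and changed by -0.04 ± 0.0512 with loss. PIANP, a ligand of the receptor PILRA, rose by 2.28 from 25.8 to 125 CPM and changed by -0.05 ± 0.0906 with loss.

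NRBP1, a pseudokinase, rose by 0.78 and changed by -0.03 ± 0.0341, the small GTPase gene RAB13 rose by 1.23 and changed by 0.15 ± 0.0509, and the transcript BC033961 rose by 2.26 and changed by -0.08 ± 0.0978. All 6 genes were called larger in MEIS1-OE, and their libraries were separate in the activation arm and overlapped in the knockout arm. They were chosen by the smallest p of the test of unequal size, so that this call follows from the choice, which also favours the separation. Similarity of the activation guide to sites near these genes was not tested here.

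Genes lowered by gain alone included F13A1, the A subunit of coagulation factor XIII. It fell from a median of 36.6 CPM (33.6 to 38.4) to 17.2 CPM (15.3 to 19.5), by -1.08 ± 0.0596 (edgeR adjusted p = 4.07e-17). With loss its median was 115 CPM (102 to 123) beside 100.3 CPM (93.9 to 108) in ctrl-KO, a change of 0.19 ± 0.0544 that missed the threshold (edgeR adjusted p = 0.0648). ATP2A1, a calcium pump of the endoplasmic reticulum, changed by -1.62 ± 0.122 with gain and -0.05 ± 0.112 with loss. RABEP2, which overlaps ATP2A1 on the other strand, rose by 3.5 with gain (edgeR adjusted p = 1.40e-16), and reads of both cannot be told apart without the strand setting. CDC25C, the phosphatase that activates CDK1 at the entry into mitosis, changed by -0.61 and -0.03, and the transcript LOC100506421 by -0.55 and 0.00.

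Responses to loss were then read by the size of the response to gain. Among the 234 genes raised by more than 1 on the log2 scale (MEIS1 left out), the median gain was 1.59, and the median effect of loss was 0.02, with quartiles of -0.15 and 0.46. Of these genes 84 (35.9%) had an opposite sign with loss, 2 were called with the opposite and 6 with the same sign. Among the 406 genes raised by 0.25 to 0.58, the median effects were 0.38 and 0.05, and 39.7% had an opposite sign. For the 304 genes lowered by 0.25 to 0.58 the medians were -0.33 and -0.06, with an opposite sign in 32.6%. Over all genes called for gain, 39.4% had the opposite sign with loss, beside 44% of all tested genes. Without MEIS1-OE replicate 3 these shares were 33.6% and 41%. When the libraries of replicate number 6 were left out of every condition, the first share was 48.3%. The share thus depended on single replicate numbers.

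Among the genes called for loss the shares differed by direction. Of the 207 genes raised by loss, 151 (72.9%) were also higher with gain, 43 of them called, and 56 (27.1%) were lower, 8 of them called. Of the 85 genes lowered by loss other than MEIS1, 45 (52.9%) were lower with gain, 11 of them called, and 40 (47.1%) were higher, 16 of them called. Across the 2020 genes called in either arm, MEIS1 left out, the effects of gain and loss had a Pearson r of 0.11 and a Spearman rho of 0.25. Over all 19130 genes the values were 0.02 and 0.11. These are descriptions across genes, which are not independent replicates.

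**Figure D4:**
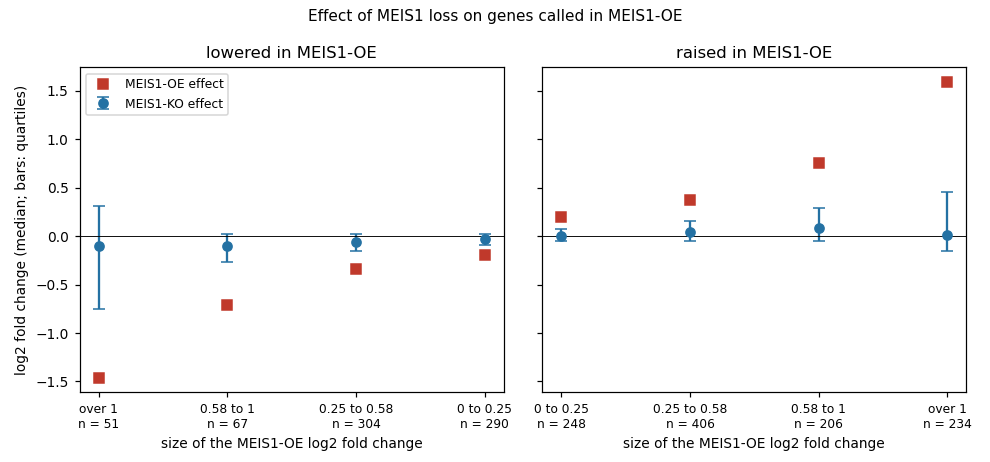
Median log2 fold change in MEIS1-OE (squares) and MEIS1-KO (circles, bars from the lower to the upper quartile) of the genes called in MEIS1-OE, split by direction and by the size of their MEIS1-OE effect (horizontal axis, log2 scale). The median effect of loss stayed between -0.1 and 0.08 in all groups, while the median gain reached 1.59 and -1.46.

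The precision of the knockout arm limits what a missing call shows. If loss acted in proportion to gain, each gene would change with loss by -0.37 times its change with gain, as MEIS1 mRNA did. This ratio still counts transcripts of edited alleles and may differ from that of functional protein, and the counts below depend on it. For 801 of the 1728 genes called in MEIS1-OE only, the 95% interval of the effect of loss held both 0 and this scaled value, so that they could not be told apart. The interval held 0 but not the scaled value for 597 genes, the scaled value but not 0 for 70, and neither for 247. For 13 genes no interval could be had, and 105 had at most 3 counts in each library of the knockout arm. Of the 24 opposite genes, 6 had an interval that held the scaled value.

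Genes moved by loss alone changed little with gain, but none of the 214 passed the test of a larger effect in MEIS1-KO. Over all tested genes the count of that test was 0 by edgeR and 0 by DESeq2, with 206 and 186 at an unadjusted p under 0.05. INPP5D, a phosphatase of phosphoinositides known from blood cells, rose from a median of 28.5 CPM (25.6 to 29.6) to 35.7 CPM (34.3 to 38.3) with loss, a change of 0.35 ± 0.0498 (edgeR adjusted p = 1.48e-04). In the activation arm it lay at 36 to 41.8 CPM in ctrl-OE and 37.2 to 45.5 CPM in MEIS1-OE, a change of 0.07 ± 0.0484 (edgeR adjusted p = 0.461). PTRF, which encodes cavin-1 of caveolae, changed by 0.75 with loss and 0.06 with gain, ACTA2, smooth muscle actin, which overlaps FAS on the other strand, by 0.36 and 0.07, and TNFRSF21, a death receptor, by 0.37 and -0.00. FAM212B (0.33 and 0.03) and the phosphatase gene DUSP14 (0.3 and -0.03) were the others. Each of the 6 had separate groups in the knockout arm and overlapping groups in the activation arm. They were chosen by the smallest p of the test of a larger effect in MEIS1-KO, which favours this pattern.

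GLI1, a transcription factor and readout of Hedgehog signalling, was lowered by loss alone. It was at 4.57 to 5.97 CPM in ctrl-KO (median 5.33) and 2.52 to 3.88 CPM in MEIS1-KO (median 3.06), a change of -0.76 ± 0.128 (edgeR adjusted p = 6.68e-04). With gain its range of 2 to 2.94 CPM lay within that of ctrl-OE, 2.05 to 3.55 CPM, apart from its lower end (-0.07 ± 0.139, edgeR adjusted p = 0.852). UNG, the uracil DNA glycosylase, changed by -0.24 with loss and -0.03 with gain, ADAMTS3 by -0.43 and 0.03, and TMEM150C by -0.82 and 0.06. Of the 214 genes called with loss only, the difference between gain and loss was itself called for 65 and the sum of both effects for 146. The 10 genes named were chosen by the p of this comparison, and their difference had an adjusted p from 0.00173 for DUSP14 to 0.0418 for UNG (edgeR).

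Gene lists were read in both arms, beside 5.72% raised and 3.72% lowered with gain and 1.08% raised and 0.45% lowered with loss over all tested genes. Over the same genes the direct contrast called 3.6%, the sum 8.06% and the test of a larger gain 1.16%. The lists were chosen with earlier results of these data known. Targets of p53, the factor activated by DNA damage, were read first. Of 30 targets 10 rose with loss and 0 fell, while 4 rose with gain and 0 fell. Their median change was 0.23 with loss and 0.08 with gain, and 29 of 30 were positive with loss and 26 with gain. TP53I3 rose by 0.3 with loss and XPC, a DNA repair factor, by 0.18, and GADD45A rose by 0.35. With gain these genes changed by 0.13, 0.07 and 0.18 and were not called. The cutting of DNA in MEIS1-KO, which ctrl-KO lacks, and the loss of MEIS1 cannot be told apart for these targets. The direct contrast of both arms called 1 of the 30 genes, beside 3.6% of all tested genes, and the sum 14, beside 8.06%. The number raised by gain was 2 without ctrl-OE replicate 1 or MEIS1-OE replicate 2, and 7 without MEIS1-OE replicate 3. The number raised by loss was 5 without MEIS1-KO replicate 3 or ctrl-KO replicate 6, and 6 without ctrl-KO replicate 5 or MEIS1-KO replicate 4.

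Of 20 genes of mitosis 12 were lowered by gain and 1, UBE2C, was raised by loss. The median was -0.18 with gain, with all 20 negative, and 0.06 with loss, with 11 positive. KIF20A, a kinesin of cytokinesis, was at 156 to 183 CPM in ctrl-OE (median 168) and 119 to 143 CPM in MEIS1-OE (median 125). It lay at 250 to 286 CPM in ctrl-KO (median 257) and 243 to 287 CPM in MEIS1-KO (median 264). Its changes were -0.42 ± 0.0525 (edgeR adjusted p = 1.21e-07) and -0.01 ± 0.0519 (edgeR adjusted p = 0.987), and the gain was the larger effect. UBE2C, which serves the anaphase-promoting complex, changed by 0.25 with loss and -0.07 with gain. The direct contrast called 6 of the 20 genes, and the number lowered by gain was 6 without ctrl-OE replicate 4 or MEIS1-OE replicate 2 and 7 without MEIS1-OE replicate 4 or 6.

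Genes of DNA replication and G1/S were negative for the most part in both arms, 20 of 20 with gain and 17 with loss. Of these genes 5 were lowered by loss and 2 by gain, none was raised, and the sum called 10. The medians were -0.12 and -0.09 for loss and gain. The number lowered by loss was 2 without ctrl-KO replicate 2 or MEIS1-KO replicate 3 and 3 without MEIS1-KO replicate 6. MCM4 changed by -0.14 with loss and -0.09 with gain, CCNE1, the cyclin of the entry into S phase, by -0.2 and -0.14, and MCM6 by -0.21 and -0.1. Among CDK inhibitors, CDKN2C was lowered by gain (-0.95, with -0.28 for loss) and CDKN1A raised by loss (0.39, with 0.22 for gain).

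Of 30 genes of the matrix and its remodelling 10 rose with gain and 0 fell, whereas 6 rose with loss and 1, HAS2, fell. VCAN, the proteoglycan versican, rose by 1.06 with gain and changed by 0.03 with loss, SPOCK1 by 0.94 and -0.22, and VTN, vitronectin, by 1.54 and 0.03. The list held 2 genes raised in both arms, MMP19 among them, and the direct contrast called 10 of the 30. The number raised by loss was 3 without ctrl-KO replicate 1, 2 or 3 and without MEIS1-KO replicate 3 or 6. Mesenchymal markers moved in part with loss: 3 of 8, COL1A1, ACTA2 and TAGLN, rose with loss, and 1, PDGFRB, rose with gain. Their summed level was 935 to 1243 CPM in ctrl-KO and 1158 to 1715 CPM in MEIS1-KO, and 636 to 919 CPM in ctrl-OE and 620 to 925 CPM in MEIS1-OE. The defining markers DCN and LUM stood at group means of 0.162 to 0.262 and 4.48 to 6.92 CPM, and the part of other cells in the matrix genes was not tested.

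Ion channel genes were called with gain. Of 34 ion channel and calcium handling genes 10 rose and 4 fell with gain, and 0 were called with loss (edgeR, with 5 at an unadjusted p under 0.05 and 1 called by DESeq2). JPH4, a junctophilin, rose by 1.07 and changed by 0.27 with loss, and SCN9A, a sodium channel, by 1.51 and 0.13. The gain was the larger effect for 8 of the 34. Of 36 genes of synapse organisation 9 rose and 3 fell with gain, and 2 rose and 1 fell with loss. CNTNAP1 rose by 0.68 with gain and changed by -0.05 with loss, the neurexin gene NRXN2 by 1.23 and 0.06, and the netrin-like NTNG1 by 1.95 and 0.49.

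**Figure D5:**
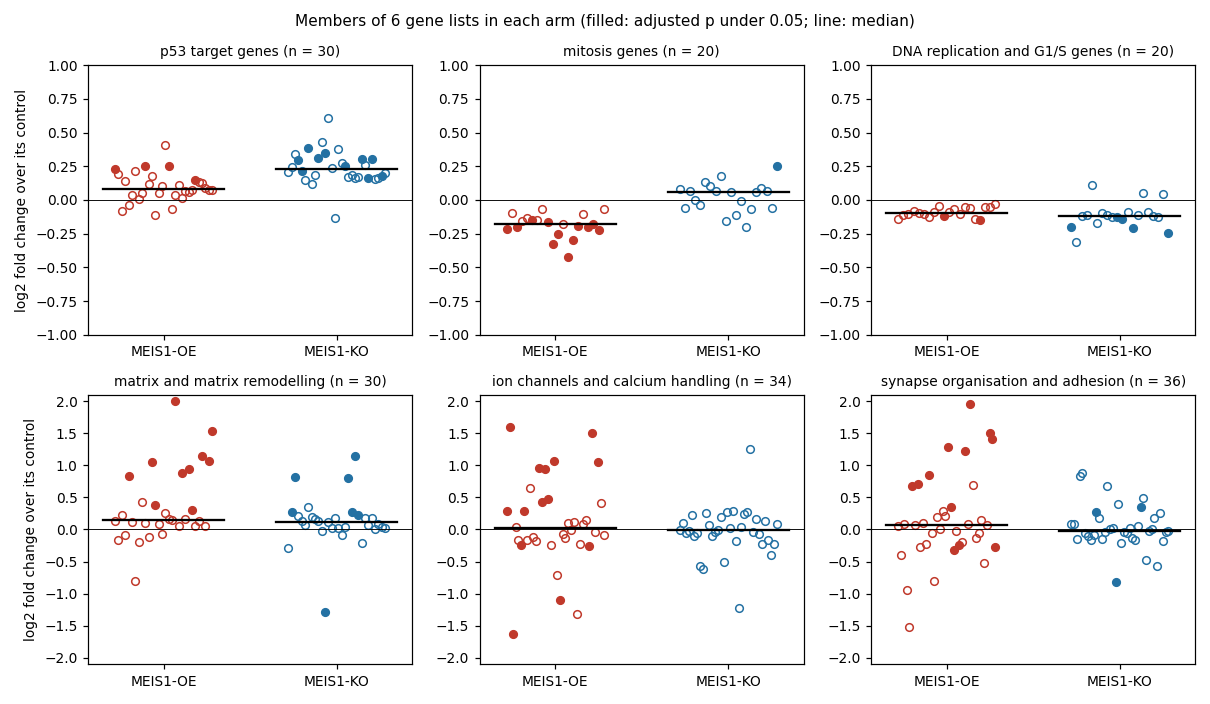
Log2 fold change of each member of 6 gene lists over the control of its arm (vertical axis), in MEIS1-OE (red) and MEIS1-KO (blue); filled points were called at an adjusted p under 0.05, lines are medians, and MMP19 is drawn at 2 in place of 3.86. The p53 targets lie above 0 mostly in MEIS1-KO (median 0.23), the mitosis genes below 0 in MEIS1-OE (median -0.18).

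Among receptor tyrosine kinases and their ligands 7 of 33 rose and 4 fell with gain, and 3 rose and 2 fell with loss. PDGFA rose by 2.54 with gain and changed by 0.68 with loss, DDR1, a collagen receptor, by 0.95 and 0.06, and ERBB3 by 0.86 and -0.00, while KIT was opposite and AXL rose in both. Among ERK feedback and immediate early genes 6 of 22 rose with gain, and 2, FOSL1 and IER3, rose with loss and 1, SPRY2, fell. In the list of Notch, WNT and BMP genes 2 of 42 rose (4.76%, beside 5.72% of all tested genes) and 4 fell with gain (9.52%, beside 3.72%), and 3 rose and 1 fell with loss (9.52% called, beside 1.53%). LEF1, a WNT effector, rose by 0.42 with gain and changed by 0.07 with loss, and BMP7 rose by 0.28 with loss and changed by -0.17 with gain. Of 36 axon guidance genes 5 rose and 1 fell with gain and 2 rose with loss. EPHA4 changed by 0.71 with gain and -0.17 with loss, SEMA6A by 0.25 and -0.14, and SLIT2 by -0.11 and 0.26. The direct contrast was called for all of these 3 (edgeR adjusted p = 3.36e-04 for SEMA6A).

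Among the 11 TALE homeobox genes, besides MEIS1, the gene PKNOX1 rose by 0.32 with gain and PKNOX2 fell by -0.34, and neither was called with loss (-0.03 and -0.02). Of 26 SOX and FOX genes 2 rose and 3 fell with gain and 1, FOXP2, fell with loss by -0.35 ± 0.0867. FOXP2 had a change of 0.22 ± 0.0938 with gain (edgeR adjusted p = 0.15). Sterol synthesis genes were lowered by gain in 3 of 19 cases, with a negative sign for all 19 and a median of -0.16, and 0 were called with loss (edgeR, with 1 at an unadjusted p under 0.05 and 0 by DESeq2), where the median was -0.01. DESeq2 called 9 of these genes with gain. Interferon-stimulated genes (1 raised and 1 lowered of 25 with gain, and 0 called with loss by edgeR or DESeq2, 3 at an unadjusted p under 0.05) and genes of the unfolded protein and stress response (2 raised of 20 with gain, 1 with loss) had few calls. ATF3 was the 1 raised by loss, by 0.58, with 0.3 for gain.

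Of 12 neural stem or progenitor markers 3 fell with gain (25%, beside 3.72% of all tested genes), and 1 rose and 1 fell with loss (16.7% called, beside 1.53%). With gain 6 of the 12 were positive and 6 negative, with a median of 0.007, and with loss 5 were positive and 7 negative. Their summed level was 3164 to 4088 CPM in ctrl-OE and 3459 to 4406 CPM in MEIS1-OE. It was 4585 to 5137 CPM in ctrl-KO and 4911 to 6265 CPM in MEIS1-KO. Of 8 neuron markers 1 rose and of 6 astrocyte markers 1 fell with gain, with 0 called with loss (edgeR and DESeq2, 1 at an unadjusted p under 0.05 in each list). Of 7 oligodendrocyte lineage markers 0 were called by edgeR in either arm, with 1 at an unadjusted p under 0.05 in each and 1 called by DESeq2 with loss. Pluripotent markers and markers of microglia and endothelium had 0 calls by either tool, and 2 of the latter had an unadjusted p under 0.05 with loss.

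The MEIS core motif TGACAG was looked up in promoters, 250 bases before to 50 after the start site in RefSeq (GRCh38), on both strands. A promoter was found for 12014 of the 19131 tested genes, under the 80% needed to read a share over a gene set, so that no comparison of shares between the classes was made. Of the joint genes, DCLK2 (opposite), RAPGEF3, MCAM and TUBA1C (raised in both) and NQO1 (opposite) held the motif, and 13.8% of all promoters found did. The promoters of DCLK2, at chr4:150078195-150078494 on the plus strand, and RAPGEF3, at chr12:47758831-47759130 on the minus strand, are shown as examples of an opposite and a same-direction gene with the motif in capitals. It began 128 bases before the start site in DCLK2 and 26 bases before it in RAPGEF3. A match is no binding site.
DCLK2: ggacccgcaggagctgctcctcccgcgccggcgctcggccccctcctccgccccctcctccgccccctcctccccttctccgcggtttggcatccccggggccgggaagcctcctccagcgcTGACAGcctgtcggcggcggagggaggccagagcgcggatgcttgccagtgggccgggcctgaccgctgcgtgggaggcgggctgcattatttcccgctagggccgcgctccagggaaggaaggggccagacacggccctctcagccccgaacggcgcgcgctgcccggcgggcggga
RAPGEF3: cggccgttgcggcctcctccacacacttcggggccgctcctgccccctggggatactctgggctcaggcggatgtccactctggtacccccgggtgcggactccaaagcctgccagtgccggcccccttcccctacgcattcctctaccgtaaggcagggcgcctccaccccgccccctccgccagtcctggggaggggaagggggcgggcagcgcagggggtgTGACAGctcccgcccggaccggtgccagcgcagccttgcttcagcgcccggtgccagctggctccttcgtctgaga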

How the data were processed

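Poly(A) RNA of hNSC was sequenced in 36 libraries as paired reads of 100 bases. The authors trimmed and aligned the reads (Trimmomatic 0.39 and STAR 2.7.0a in the submitters' processing notes) to hg19, and deposited whole-number counts per gene symbol, made with HTSeq. The paper reports a stranded library kit, but the strand setting of the counting step is not given in the sources used here. Libraries held 17227052 to 22940493 counts in the 4 groups compared.

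Counts were tested with edgeR 4.0.16 in R 4.3.3 (TMM, quasi-likelihood F test) in 1 fit of 36 libraries and 6 conditions, on the 19131 genes with at least 10 counts over the 24 libraries compared. P-values were adjusted by Benjamini-Hochberg over all tested genes, and a gene was called at an adjusted p under 0.05. Contrasts were gain, loss, their difference and their sum. An effect was larger in 1 arm when both the difference and the sum passed in its direction (the larger of both p-values, adjusted). CPM (counts scaled to a common library size) used TMM library sizes. The test was checked on simulated counts with effects of 0.6 on the log2 scale in well expressed genes. This is above the median effects of each joint class, so that smaller effects and genes with low counts were not checked.

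The text names MEIS1, MEIS2, up to 10 genes per direction of each joint class by the larger p of both arms, 6 raised and 4 lowered genes of each single-arm class by the p of the larger effect, and up to 4 members per list by p, with at least 10 mean counts in 1 group for the classes. Some genes that this rule selects are not reported here. Other genes were named after their values were seen. Members and lists were chosen with earlier results of these data known. Alternatives were DESeq2 1.42.0, RLE size factors, other filters on low counts, the 24 libraries alone, a replicate block, a fold criterion and fits without each replicate number. Fits without each single library were chosen after seeing the data. Promoters came from RefSeq (GRCh38) and guide positions from GRCh37. Figures were drawn with matplotlib 3.10.9.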

Additional observations from a re-analysis of the deposited data

Results flagged for a closer look

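Each value here is the gap of the highest or lowest library to its nearest neighbour, as a share of the range of the 6 libraries of its group. Gaps above Dixon's 95% critical value were listed for 41 of the 548 gene and group combinations examined, and chance lists about 1 in 20. MEIS1-OE replicate 3 was the library in 10 of them and ctrl-KO replicate 2 in 6. No explanation was tested.

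MEIS1-KO replicate 1 stood apart with HES5 (highest, 0.65) and DCX (highest, 0.7). MEIS1-KO replicate 2 was separate from the other 5 libraries for SLIT2 (lowest, 0.695). MEIS1-KO replicate 3 lay outside its group for FAM167A (lowest, 0.748), ISOC1 (lowest, 0.639), MCM3 (lowest, 0.632) and IFIT5 (lowest, 0.72). MEIS1-KO replicate 4 stood apart with LEF1 (lowest, 0.688). MEIS1-KO replicate 5 was separate from the other 5 libraries for NANOG (highest, 0.668). MEIS1-KO replicate 6 lay outside its group for NRBP1 (highest, 0.757). MEIS1-OE replicate 3 stood apart with MEIS2 (highest, 0.721), CLGN (highest, 0.681), WDR76 (highest, 0.786), PKNOX2 (highest, 0.683), MCM6 (highest, 0.657), KIF20A (highest, 0.641), IDI1 (highest, 0.628), FOXP2 (highest, 0.659), TUBB3 (lowest, 0.734) and CSPG4 (lowest, 0.68). MEIS1-OE replicate 5 was separate from the other 5 libraries for BMP7 (highest, 0.674). MEIS1-OE replicate 6 lay outside its group for ANKRD1 (highest, 0.638) and ATF3 (highest, 0.783). ctrl-KO replicate 2 stood apart with NQO1 (highest, 0.67), PLK2 (highest, 0.745), LOC100506421 (highest, 0.735), UNG (highest, 0.651), PDGFA (highest, 0.701) and MCM6 (highest, 0.683). ctrl-KO replicate 3 was separate from the other 5 libraries for GFAP (highest, 0.672) and EMP1 (lowest, 0.731). ctrl-KO replicate 4 lay outside its group for NANOG (highest, 1). ctrl-KO replicate 5 stood apart with VSIG10 (lowest, 0.817). ctrl-KO replicate 6 was separate from the other 5 libraries for KIF5A (highest, 0.709), MKI67 (highest, 0.689) and VCAN (highest, 0.627). ctrl-OE replicate 3 lay outside its group for MEIS1 (lowest, 0.721). ctrl-OE replicate 6 stood apart with SPRY2 (highest, 0.666), TUBB3 (highest, 0.687), CSPG4 (highest, 0.657) and DDR1 (highest, 0.725).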

How the results depend on the processing

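Counts of calls depended on the precision of the fit. With a fold criterion added, 559 genes were called with gain and 60 with loss, 2 in opposite directions, 7 in the same direction, 549 with gain only and 50 with loss only, 278 by the difference, 581 by the sum and 134 as larger with gain. DESeq2 called 442 genes with loss, 40 opposite and 93 same. The main fit did not pair libraries by replicate number. The mean correlation of deviations was 0.0527 for 36 pairs with the same number, from -0.589 to 0.78, and 16 above 0.1. For 180 pairs with other numbers it was -0.0158, from -0.861 to 0.796, and 63 above 0.1. Whether the numbers mark libraries handled together was not tested. With the replicate block 2061 genes were called with gain, 463 with loss, 41 opposite and 101 same.

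Without 1 replicate number or 1 library, the counts ranged from 1168 to 2511 for gain, 109 to 403 for loss, 6 to 33 for opposite genes and 20 to 99 for same-direction genes. Without 1 replicate number they ranged from 1132 to 2114 for gain only, 71 to 217 for loss only, 422 to 791 for the difference, 920 to 1617 for the sum and 143 to 221 for genes larger with gain. The share of genes called with gain that had the opposite sign with loss ranged from 34.1% to 48.3%, and the share of genes called with loss that had the opposite sign with gain from 22.3% to 42%. The genes called with gain whose interval for loss held the dose-scaled value numbered 581 to 1035. The test of a larger effect with loss called 0 genes in each of the 12 alternatives with an edgeR or DESeq2 fit, with 121 to 271 at an unadjusted p under 0.05. Among 280 effects of named genes, no called effect changed sign in the alternatives, in which 194 values lost and 50 gained their call, while some uncalled effects near 0 did change sign. The median of all genes moved by less than 0.1 under each scaling. The precision of the knockout arm limits statements on genes called with gain only.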
